A study of Mus musculus with 16 samples.

Results

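Hippocampal transcripts at 5 days after fear learning were compared with those at 1 day in mice that carried extra Dnmt3a2, using the 4 libraries labelled for each day, 8 of the 16 in the series. In contextual fear conditioning an animal learns that a place predicts a shock to the feet. All mice had received a recombinant adeno-associated virus in the dorsal hippocampus 3 weeks before training, carrying either exogenous Dnmt3a2 or GFP, and the GFP animals at the same days (4 and 4 libraries) served as the background for the passage of time. The groups are named Dnmt3a2_1d, Dnmt3a2_5d, Control_1d and Control_5d. Every group was injected and conditioned, so an untrained reference was not analysed here. The sources used here do not give the promoter or serotype of the virus, or the age, sex and strain of the mice. Nor do the labels tie libraries to separate animals, and the p-values then measure only the spread between these samples.

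Dnmt3a2 is the shorter isoform of Dnmt3a, an enzyme that places new methyl groups on cytosines of DNA, and in neurons it is itself made in response to activity. A day after training, the first wave of learning-induced transcription in the hippocampus has passed. The following days belong to the slower process in which a memory becomes less dependent on the hippocampus. The comparison asks how the transcriptome of Dnmt3a2 hippocampus differs between those times.

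Depth was even, at 28.8 to 30 M estimated counts per Dnmt3a2 library, and the unit of level is CPM, in which each library is brought to the same total. Prox1, a marker of dentate granule neurons, ranged from 136.3 to 185.6 CPM, and Wfs1, a marker of dorsal CA1 neurons, from 208.4 to 308.8 CPM, so the defining transcripts of the labelled tissue were present in each of the 8 libraries. Some libraries stood apart. Ttr, the transthyretin of choroid plexus, was at 773.3 CPM in Dnmt3a2_1d replicate 1 and 1253 CPM in Dnmt3a2_5d replicate 1, against 6.15 to 86.6 CPM in the other 6. The same libraries carried the most interferon response transcripts, with summed levels of 848.7 and 813.1 CPM. Dnmt3a2_1d replicates 1 and 4 were rich in heat shock and glucocorticoid-responsive transcripts, as described below. Counts are given with and without these libraries where they bear on a result.

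No gene passed the test between 5 days and 1 day in Dnmt3a2 hippocampus. In edgeR's quasi-likelihood test, 0 of 16899 genes (0%) had an adjusted p under 0.05, and the smallest adjusted p was 0.187, shared by 25 genes. DESeq2's Wald test on the same counts called 67 genes, 43 higher and 24 lower at 5 days, with p-values adjusted over the 8021 genes that its own filter on low counts left. Adjusted over 16883 of the genes that edgeR tested, a choice made after seeing the data, DESeq2 called 42, 24 higher and 18 lower. Limma-voom called 0. With the replicate number as a block edgeR called 0, with a smallest adjusted p of 0.103. At an unadjusted p under 0.05 stood 1822 genes, 10.8% of those tested, where an even spread of p-values would put 845. They divided into 938 higher (5.55%) and 884 lower (5.23%) at 5 days. The 4 and 4 libraries did not overlap for 874 genes, or 5.17%, with 453 higher (2.68%) and 421 lower (2.49%). Differences were small: the median absolute log2 difference over all genes was 0.10, and 187 genes combined an unadjusted p under 0.05 with a difference beyond 1.5-fold.

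With all libraries in, the same days in GFP animals gave fewer low p-values. In edgeR 0 of 16899 genes were called for Control_5d against Control_1d, 598 (3.54%) had an unadjusted p under 0.05 and 406 (2.4%) did not overlap (191 higher, 1.13%, and 215 lower, 1.27%), and DESeq2 also called 0. The median absolute log2 difference was 0.07. The larger Dnmt3a2 count depended on which libraries were in. Without Dnmt3a2_1d replicates 1 and 4, a choice made after seeing the data, 731 of 17455 genes (4.19%) had an unadjusted p under 0.05. Without replicate 1 of both Dnmt3a2 days, 2056 of 17036 did. Fewer libraries also limit the precision, and the part of this in these counts was not tested. The difference between the time comparisons, tested as an interaction, was called for 0 genes by edgeR (360 at an unadjusted p under 0.05, 2.13%) and for 1 by DESeq2. A larger time difference in Dnmt3a2 than in control animals was therefore not shown for any gene by edgeR.

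**Figure D1:**
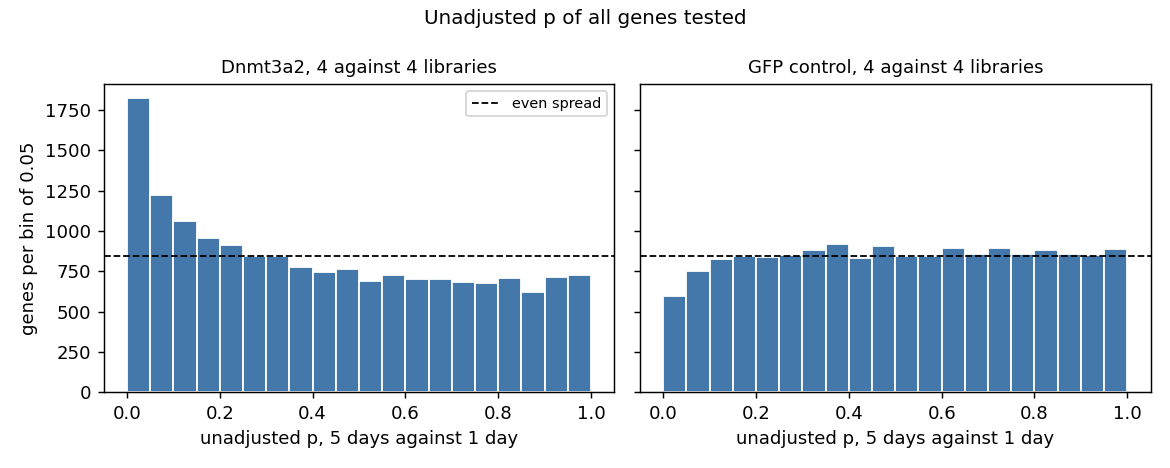
Number of genes (y axis) in each bin of unadjusted edgeR p (x axis) for 5 days against 1 day, in Dnmt3a2 (left) and GFP control libraries (right). The lowest bin holds 1822 genes on the left and 598 on the right, where the dashed line of an even spread lies at 845. Without Dnmt3a2_1d replicates 1 and 4 (not drawn), 731 of 17455 genes (4.19%) had an unadjusted p under 0.05.

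Many of the small differences had the same sign in both virus groups, which share no library. Of 14240 genes averaging 1 CPM or more, 65.6% differed in the same direction in Dnmt3a2 and in control. Among those with an unadjusted p under 0.05 in Dnmt3a2, the control difference had the same sign for 769 of 897 higher and 674 of 808 lower genes (85.7% and 83.4%). Genes are not independent of each other, so these shares are descriptions. The median log2 difference also moved slightly with base composition, from 0.02 in the fifth of genes lowest in GC to -0.02 in the highest in Dnmt3a2, and from 0.03 to -0.04 in control.

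The delivered gene was checked first. Dnmt3a (ENSMUSG00000020661, chromosome 12, 3806007 to 3914443 on build GRCm38) stood at 623.2, 1096, 1153 and 982.3 CPM in Dnmt3a2_1d replicates 1 to 4. At 5 days the Dnmt3a2 libraries held 1015, 1249, 1136 and 1244 CPM. The days overlapped, and the lowest library was replicate 1 at 1 day. Control libraries stood at 32.7 to 37.7 CPM, so each library labelled Dnmt3a2 carried the transgene. The log2 difference was 0.27 (SE 0.14, edgeR adjusted p = 0.524), and a two-sided exact permutation test over 70 regroupings gave p = 0.143 (smallest possible 0.0286). Without Dnmt3a2_1d replicate 1 the difference was 0.11. Delivered and endogenous transcripts are counted together.

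With none called, the genes named next are those with the smallest p in each direction, 10 and 10, with an established symbol, a mean of at least 1 CPM and no overlap between the libraries of the days. They are given as values and not as changes. Their absolute log2 differences ran from 0.21 to 1.10, and 16 of the 20 lay below 1.5-fold. They were chosen for small p-values in these libraries, so the sizes are no independent estimates. In the control animals, whose levels were not used to rank the genes but whose spread entered the shared model, all 20 differed in the same direction, and 7 had an unadjusted p under 0.05. The interaction had an edgeR adjusted p = 1 for each of them.

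The 10 genes that stood higher at 5 days are given first. Gpr85 (chromosome 6, 13834458 to 13839942) encodes an orphan receptor of the brain. It stood at 33.4, 34.9, 35.8 and 35.5 CPM at 1 day and at 42.2, 41.0, 39.9 and 43.3 CPM at 5 days. Each library of the later day lay above each of the earlier, with a log2 difference of 0.26 (SE 0.05, edgeR adjusted p = 0.187). In control libraries Gpr85 went from 32.6 to 34.1 CPM at 1 day to 33.6 to 37.1 CPM at 5 days, ranges that overlap. Cacna2d3 (chromosome 14, 28904943 to 29721864), an auxiliary subunit of voltage-gated calcium channels, held 56.1 to 67.0 CPM at 1 day and 71.2 to 83.0 CPM at 5 days (log2 0.29, SE 0.06). Cpne6 (chromosome 14, 55510445 to 55517431), a copine that binds membranes when calcium rises in hippocampal neurons, held 594.1, 685.7, 654.1 and 650.1 CPM at 1 day. At 5 days Cpne6 held 730.2, 750.2, 747.2 and 769.4 CPM, a log2 difference of 0.21 (SE 0.05). Control libraries of Cpne6 stayed between 585.1 and 667.3 CPM over both days.

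Sstr3 (chromosome 15, 78537008 to 78544685), the somatostatin receptor of neuronal cilia, was at 25.9 to 31.0 CPM at 1 day and 34.4 to 41.7 CPM at 5 days (log2 0.38, SE 0.08). Lrp1b (chromosome 2, 40595246 to 42653624), a large endocytic receptor of the LDL receptor family, was at 22.5, 21.5, 23.9 and 21.3 CPM at 1 day and 25.1, 29.9, 27.8 and 28.9 CPM at 5 days. Its log2 difference was 0.33 (SE 0.07), and in control libraries 0.14 (SE 0.07). Mgat2 (chromosome 12, 69184157 to 69186770), a Golgi enzyme that branches N-linked sugars, was at 27.5, 29.5, 26.8 and 27.2 CPM at 1 day and 33.8, 32.9, 32.7 and 35.5 CPM at 5 days (log2 0.28, SE 0.06). The control value of Mgat2 was 0.01 (SE 0.06). Mgat2 shares exon sequence with the predicted gene Gm49383, at 1.40 CPM. Tarsl2, a threonyl-tRNA synthetase, and Spata7, a ciliary protein of photoreceptors, had log2 differences of 0.38 and 0.37. Tarsl2 overlaps exons of Tm2d3, and whether reads were counted by strand is not stated in these sources, so its value is uncertain.

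Of the 10 genes that stood lower at 5 days, Slc19a3 (chromosome 1, 83012523 to 83038448), a thiamine transporter, had the smallest p of all genes tested (edgeR unadjusted p = 2.23e-05, adjusted p = 0.187). Its levels were 3.75, 2.95, 2.24 and 4.09 CPM at 1 day and 1.62, 1.51, 1.44 and 1.51 CPM at 5 days. The earlier libraries varied widely among themselves while the later ones were close together, and the log2 difference was -1.10 (SE 0.20). Replicates 1 and 4 were the highest at 1 day, and without them the log2 difference was -0.77. Control libraries of Slc19a3 held 1.65 to 2.85 CPM at 1 day and 1.28 to 1.77 CPM at 5 days, a difference of -0.51 (SE 0.20). Scd1 (chromosome 19, 44394455 to 44407879), which desaturates stearoyl-CoA in the making of membrane and myelin lipids, held 158.4, 125.4, 140.3 and 131.8 CPM at 1 day and 104.7, 106.1, 91.8 and 106.7 CPM at 5 days. The log2 difference of Scd1 was -0.44 (SE 0.09), and -0.25 (SE 0.09) in control. Acer2 (chromosome 4, 86874396 to 86934822), a Golgi ceramidase, held 7.08, 4.20, 3.79 and 9.95 CPM at 1 day and 2.74 to 3.16 CPM at 5 days. Its log2 difference of -1.09 (SE 0.24) was carried by 1-day replicates 1 and 4, and without them it was -0.44. Spns2, a transporter that exports sphingosine-1-phosphate and overlaps exons of Mybbp1a, had -0.28 (SE 0.06), and -0.18 without the same libraries.

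Zcchc24 (chromosome 14, 25711642 to 25769039), a zinc finger protein, held 91.5, 76.6, 74.1 and 83.3 CPM at 1 day and 67.0, 63.6, 60.1 and 56.8 CPM at 5 days (log2 -0.40, SE 0.07). The control days of Zcchc24 also did not overlap, at 68.8 to 79.9 CPM and 57.1 to 67.7 CPM (log2 -0.22, SE 0.07). Oxsr1, a kinase that sets the activity of cation-chloride cotransporters, held 32.0 to 35.9 CPM at 1 day and 28.6 to 29.6 CPM at 5 days (log2 -0.25, SE 0.06), and -0.16 (SE 0.06) in control. Hmbox1, a homeobox protein that binds telomeres, had -0.24, Mxi1, a MYC antagonist, -0.32, and Lypd1, a membrane-anchored modulator of nicotinic receptors, -0.33. DESeq2 called 15 of the 20, and its filter on low counts gave the other 5 (Spata7, Pcdhb2, Pcdha11, Slc19a3 and Acer2) no adjusted p. Adjusted over the genes that edgeR tested, a choice made after seeing the data, all 20 were called by DESeq2. The 20 were chosen by low p and no overlap on the same counts, so these calls are no separate support.

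**Figure D2:**
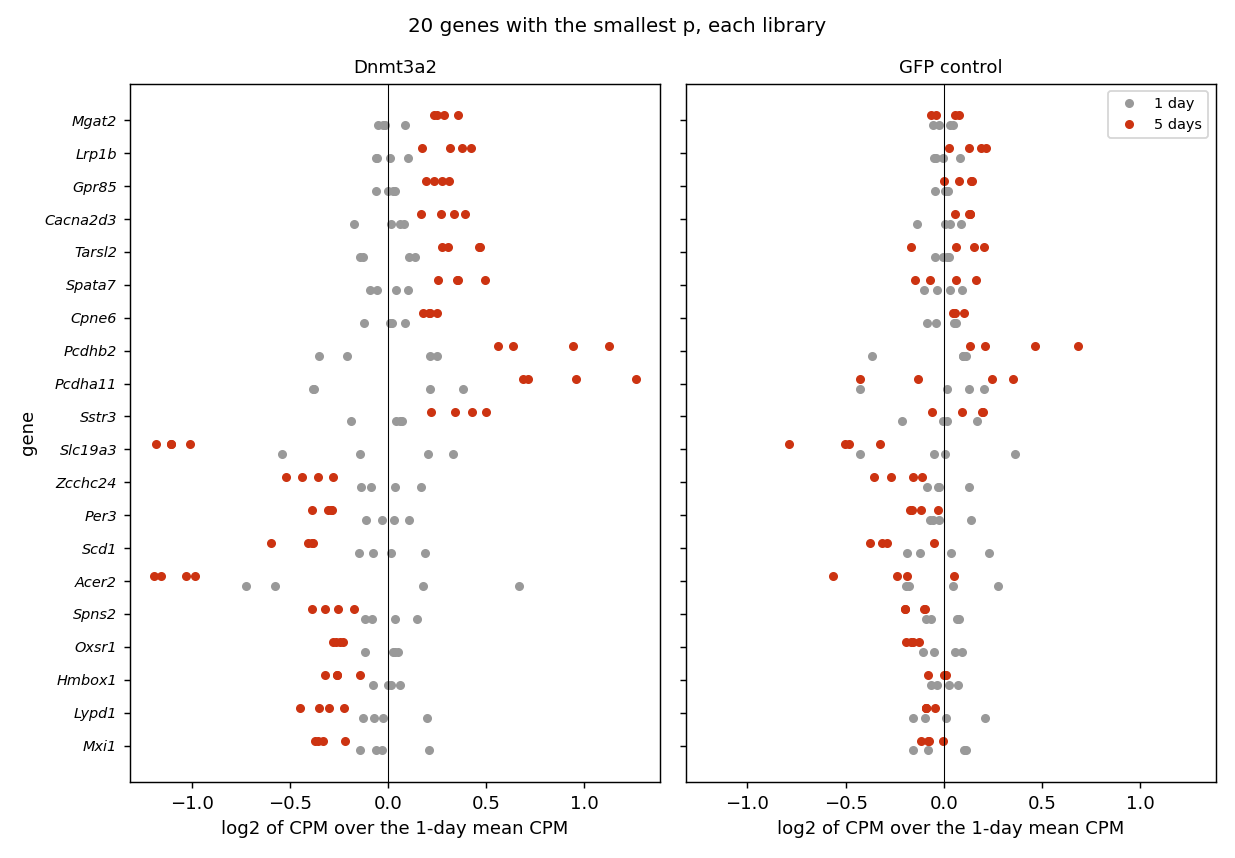
The 20 named genes (y axis) in each library, as log2 of CPM over the mean CPM at 1 day of the same virus group (x axis), with 1 day in grey and 5 days in red. In Dnmt3a2 (left) the days do not overlap, as the choice of genes required, and in GFP control (right) they overlap for 16 of the 20.

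The clock genes were followed as a list, since Per3 was among the named genes. The circadian clock is a feedback loop in which BMAL1 (Arntl) and CLOCK switch on the Per and Cry repressors, while the PAR-domain factors DBP, TEF and HLF act on D-box sites in their promoters. Per3 (chromosome 4, 151003652 to 151044665) held 30.4, 26.1, 27.6 and 28.8 CPM at 1 day and 23.2, 22.8, 23.1 and 21.6 CPM at 5 days. Its log2 difference was -0.32 (SE 0.06, edgeR adjusted p = 0.187), and -0.12 (SE 0.06) in control. The nearby promoter of Per3 holds the letters TTATGTAA, a D-box form, in a pair of copies, shown in capitals on the gene's strand (GRCm38.p6, chr4:151044796-151044890, minus strand).
Per3: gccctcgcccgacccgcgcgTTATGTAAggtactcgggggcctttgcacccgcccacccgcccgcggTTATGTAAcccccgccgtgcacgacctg
Per3 was the 1 clock gene of 20 with a RefSeq promoter window (250 bases before to 50 after the start) that held this match, against 0.795% of 12203 tested genes with such a window, searched on both strands. The E-box CACGTG was found for 5 of the 20, namely Per1, Cry1, Tef, Bhlhe41 and Ciart, against 11.1% of all. Matches are descriptions of letters.

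Per2 was lower alongside Per3, at 32.0, 25.0, 25.1 and 27.4 CPM at 1 day and 23.4, 23.2, 20.2 and 21.4 CPM at 5 days (log2 -0.31, SE 0.09). The days of Per2 did not overlap in Dnmt3a2, and the control value was -0.05 (SE 0.09). Rorb, a nuclear receptor of the clock's second loop, had -0.25 (SE 0.09), Hlf -0.19 (SE 0.08) and Tef -0.14 (SE 0.06), each with overlapping days. Those 5 of 24 clock genes had an unadjusted p under 0.05, all lower (5.23% of all genes tested were), and 0 were called. Replicate 4 at 1 day had the highest summed clock level, 2059 CPM against 1854 to 1934 CPM in the other 1-day libraries, and was the highest for Rorb, Hlf and Tef, while replicate 1 was the highest for Per2 and Per3. Without 1-day replicate 4, 2 members had an unadjusted p under 0.05. Without 1-day replicates 1 and 4, 3 of the 24 did, where 4.19% of all genes did. The log2 difference was then -0.25 for Per3, -0.18 for Per2, -0.15 for Rorb, -0.12 for Hlf and -0.05 for Tef. Csnk1e, the casein kinase that marks PER proteins for decay, was the third that did not overlap (log2 -0.09). With all libraries in, 3 of 24 clock genes (12.5%) were lower without overlap, against 2.49% of all genes. The activator Arntl was at 0.14 (SE 0.09), Per1 at -0.00 (SE 0.08), and Dbp at -0.16 (SE 0.08). In all, 8 of 24 lay above 0, with a median of -0.05, as against 50.2% above 0 and a median of 0.00 over all genes. The control libraries also had 8 of 24 above 0 (median -0.03), with 0 at an unadjusted p under 0.05. The sources used here do not give the hour of day at which tissue was taken, and its part in these values was not tested.

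The heat shock and unfolded protein response genes differed between the days through a few libraries. These genes make the chaperones and folding enzymes of the cytosol and the endoplasmic reticulum, and many are switched on together when unfolded protein builds up. At 5 days 28 of 35 measured members lay below 0 (median log2 -0.16) and 0 were called. Of the 35, 14 (40%) were lower at an unadjusted p under 0.05, against 5.23% of all genes. The days were free of overlap in 0 of the 35, near the 5.17% of all genes. Hspa5, the endoplasmic reticulum chaperone BiP, held 252.1, 110.6, 121.8 and 179.8 CPM at 1 day and 119.8, 115.6, 119.6 and 119.6 CPM at 5 days. Replicates 1 and 4 at 1 day were high and the other 6 libraries were alike, while the control libraries of Hspa5 held 96.6 to 116 CPM. Its log2 difference was -0.48 (SE 0.19, edgeR adjusted p = 0.405).

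Manf, Xbp1, Hspb1 and Sdf2l1 were likewise highest in 1-day replicates 1 and 4. Manf, a secreted stress factor of the endoplasmic reticulum, held 49.8, 26.5, 27.0 and 46.9 CPM at 1 day and 24.3 to 27.2 CPM at 5 days (log2 -0.55, SE 0.17). Xbp1, the transcription factor that drives this response, held 111, 52.3, 66.6 and 99.7 CPM and then 53.7 to 59.4 CPM (log2 -0.53, SE 0.17). Hspb1, a small heat shock protein, held 14.4, 3.58, 4.68 and 8.53 CPM and then 2.24 to 5.05 CPM (log2 -1.20, SE 0.41). In Sdf2l1, a co-chaperone of BiP, replicates 1 and 4 held 15.6 and 11.5 CPM, and the other 6 Dnmt3a2 libraries 4.79 to 6.37 CPM. Hsf1, the master factor of the cytosolic heat shock response, had the smallest p of the list (log2 -0.23, SE 0.07, edgeR adjusted p = 0.314), at 51.1, 41.2, 47.1 and 45.9 CPM at 1 day and 35.1 to 41.9 CPM at 5 days, so that replicate 3 stood above replicate 4.

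With 1-day replicates 1 and 4 left out, a choice made after seeing the data, 25 of 35 members lay above 0 (median log2 0.03) and 0 had an unadjusted p under 0.05. Without replicate 1 alone the median was -0.08 with 3 members at an unadjusted p under 0.05, and without replicate 4 alone -0.18 with 8. The control median was 0.00, with 19 of 35 above 0. The difference of this list between the days therefore rests on a pair of the 1-day libraries. What set those libraries apart was not tested.

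A shared promoter sequence marks part of this list. The members were gathered for the response that the sequence is named for, so its share describes the list and is no result of these libraries. The endoplasmic reticulum stress response element has the form CCAAT, 9 bases of any kind, CCACG, searched on both strands, and was found within the windows of 7 of 29 members that have one, namely Hspa5, Hsp90b1, Pdia6, Calr, Canx, Creld2 and Dnajc3, against 0.156% (19 of 12203) of all. The 4 of these with an unadjusted p under 0.05 are shown on the gene's strand with the match in capitals and 20 bases on each side. In Calr and Creld2 the element is on the opposite strand, so that it reads from CGTGG to ATTGG.
Hspa5: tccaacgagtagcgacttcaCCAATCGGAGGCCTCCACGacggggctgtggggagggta
Calr: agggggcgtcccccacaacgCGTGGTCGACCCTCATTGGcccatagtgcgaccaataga
Creld2: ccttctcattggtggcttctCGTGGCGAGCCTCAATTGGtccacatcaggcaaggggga
Dnajc3: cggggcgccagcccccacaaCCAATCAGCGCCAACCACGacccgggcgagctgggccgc
The printed stretches lie at chr2:34772005-34772063 (plus strand), chr8:84847055-84847113 (minus), chr15:88819500-88819558 (plus) and chr14:118937807-118937865 (plus) of GRCm38.p6. The matches within them start 65, 162, 126 and 105 bases before the annotated start. Calr, the calcium-binding chaperone calreticulin, held 509.6, 341.6, 377.2 and 391.5 CPM at 1 day and 338.3 to 365.2 CPM at 5 days. Creld2, a secreted folding factor, held 12.3, 5.80, 6.51 and 9.84 CPM at 1 day and 6.24 to 6.70 CPM at 5 days. Dnajc3, a co-chaperone that also restrains the stress kinases, held 50.7, 33.0, 34.9 and 39.1 CPM at 1 day and 32.0 to 34.5 CPM at 5 days. In each of these genes replicates 1 and 4 were the highest of the 1-day libraries, as they were in Hspa5. The heat shock element, in the form of GAA, TTC and GAA each spaced by 2 free bases and searched on both strands, was found for 4 of the 29 (Hsph1, Hspe1, Hspd1 and Chordc1), against 0.565% of all, and 1 of these, Chordc1, had an unadjusted p under 0.05. The cyclic AMP element TGACGTCA was counted over all windows alone, at 3.39%.

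Glucocorticoid-responsive genes, which adrenal stress hormones raise in many tissues, showed a like pattern with replicate 4 as the extreme. At 5 days 27 of 29 members lay below 0 (median log2 -0.15) and 0 were called. Of the 29, 10 were lower and 1 higher at an unadjusted p under 0.05, against 5.23% and 5.55% of all genes. Tsc22d3 (GILZ), a classic target of the receptor, held 32.2, 26.1, 26.8 and 55.6 CPM at 1 day and 21.7, 21.1, 24.7 and 22.6 CPM at 5 days (log2 -0.64, SE 0.22). Its days did not overlap, and replicate 4 at 1 day stood far above the rest. Hif3a held 3.47, 2.33, 1.52 and 8.08 CPM at 1 day and 1.44 to 2.19 CPM at 5 days (log2 -1.02, SE 0.40). Arrdc2 was less dependent on 1 library, at 7.80, 7.15, 6.89 and 8.46 CPM and then 5.81, 6.02, 5.54 and 6.05 CPM (log2 -0.37, SE 0.12). Nr3c2, the mineralocorticoid receptor itself, was the member higher at 5 days (log2 0.17, SE 0.07), and stood at 0.15 (SE 0.07) in control. Without 1-day replicates 1 and 4 the list had 13 of 29 above 0 (median -0.00) and 0 at an unadjusted p under 0.05. In control 5 of 29 lay above 0, with a median of -0.12.

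**Figure D3:**
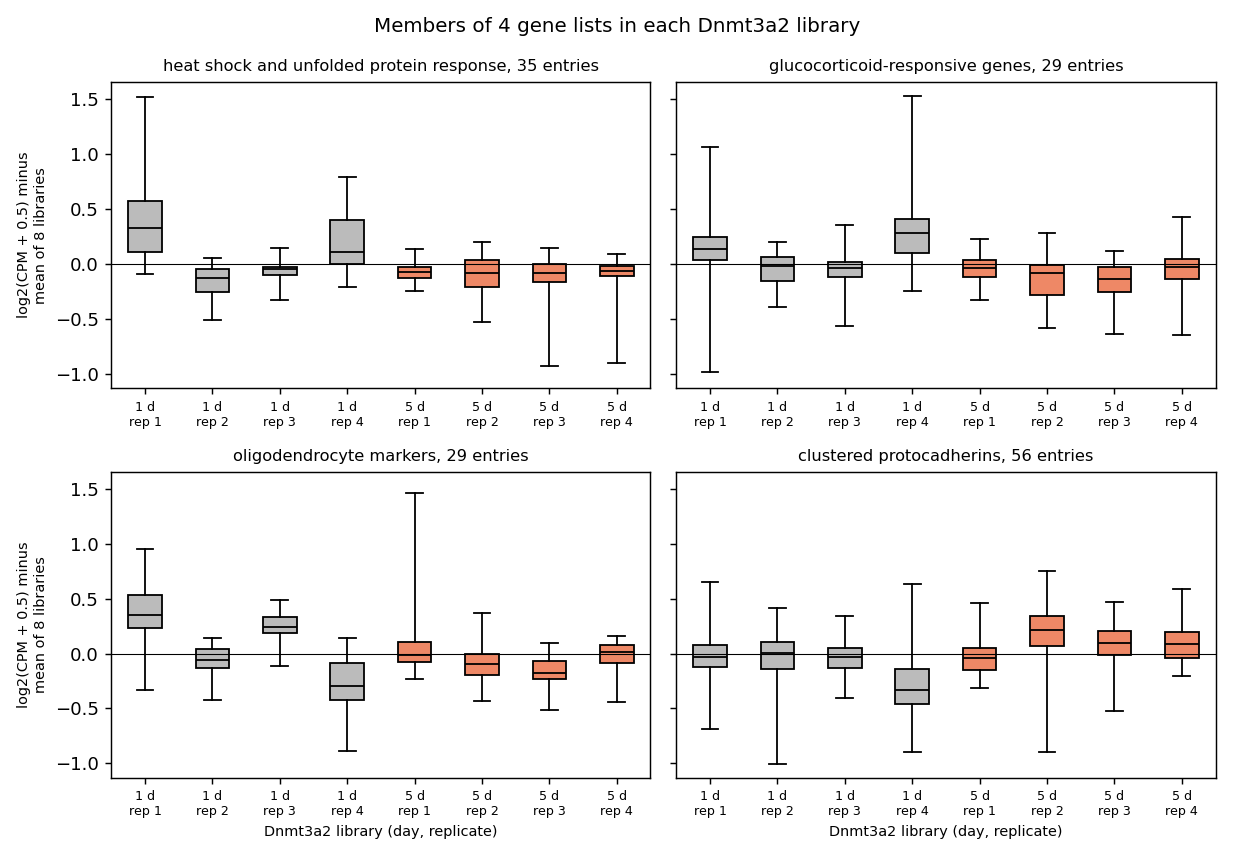
Members of 4 gene lists in each Dnmt3a2 library (x axis), as log2(CPM + 0.5) minus the member's mean over the 8 libraries (y axis). Boxes give the quartiles and the median and whiskers the full range, with 1 day in grey and 5 days in orange. In the upper panels 1-day replicates 1 and 4 stand above the other 6.

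Several myelin transcripts stood lower at 5 days in each library. Oligodendrocytes wrap axons in myelin and arise from precursors that keep dividing in the adult brain. Mbp, the myelin basic protein, held 2788, 1999, 2652 and 2070 CPM at 1 day and 1834, 1488, 1392 and 1393 CPM at 5 days (log2 -0.64, SE 0.17, edgeR adjusted p = 0.301). Mobp, another structural myelin protein, held 734.5, 463.4, 621.7 and 492.3 CPM and then 405.9, 346.9, 328.5 and 350.1 CPM (log2 -0.69, SE 0.21). Bcas1, which marks oligodendrocytes that are forming myelin, held 135.5 to 169.4 CPM and then 91.8 to 121.1 CPM (log2 -0.53, SE 0.16). None of the 3 overlapped between days in Dnmt3a2. They were named after their values had been seen. Of 29 oligodendrocyte markers, 3 (10.3%) were lower without overlap, against 2.49% of all genes. With replicate numbers as a block in the Dnmt3a2 libraries alone, a fit chosen after seeing the data, Mbp and Bcas1 were called (edgeR adjusted p = 0.0192 for each), with Plekhb1, Prr18 and Gm37167 beside them. The control differences of Mbp, Mobp and Bcas1 were -0.32, -0.43 and -0.24, and control libraries of Mbp overlapped, at 1627 to 2727 CPM and 1448 to 1988 CPM.

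The members with an unadjusted p under 0.05 on the higher side were Pdgfra and Cspg4. Pdgfra, the growth factor receptor of precursors, held 28.8, 39.8, 36.7 and 25.9 CPM at 1 day and 39.5, 45.4, 38.7 and 39.8 CPM at 5 days (log2 0.32, SE 0.11). Cspg4 (NG2), which precursors share with pericytes, held 15.5 to 23.5 CPM and then 23.2 to 29.3 CPM (log2 0.33, SE 0.12). In both, replicates 1 and 4 were the low libraries at 1 day, and without them the log2 difference was 0.09 (SE 0.09) for Pdgfra and 0.13 (SE 0.11) for Cspg4. Of 29 oligodendrocyte markers 8 lay above 0 (median -0.13), with 0 called by the 16-library edgeR fit. Of the 29, 2 were higher and 5 lower at an unadjusted p under 0.05, against 5.55% and 5.23% of all genes. The summed level of the 29 was 5094 to 7734 CPM at 1 day and 4421 to 5570 CPM at 5 days, highest in 1-day replicates 1 and 3. Without 1-day replicate 1 the median was -0.00 with 14 above 0, and without 1-day replicates 1 and 4 it was -0.16 with 5 above 0. In bulk tissue, fewer cells of a type and less RNA per cell cannot be told apart, and the borders of the dissection are a further unknown whose part was not tested.

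Markers of other cell types were followed in the same way. Of 24 astrocyte markers 1 lay above 0 (median -0.10), and 7 in control (median -0.05). In Dnmt3a2 5 were lower at an unadjusted p under 0.05 and 0 higher, against 5.23% and 5.55% of all genes. Glul, glutamine synthetase, held 1543, 1137, 1158 and 1458 CPM at 1 day and 1054 to 1141 CPM at 5 days (log2 -0.28, SE 0.08), so its 1-day replicates 1 and 4 were again high. S100b held 72.1, 75.8, 74.4 and 84.0 CPM and then 70.04, 60.7, 69.8 and 58.9 CPM without overlap (log2 -0.24, SE 0.08), and its control value was 0.01. Without 1-day replicates 1 and 4, 4 of 24 lay above 0 with a median of -0.04. Summed astrocyte levels were 6795 to 7728 CPM at 1 day and 6241 to 6721 CPM at 5 days. Of 21 microglia and macrophage markers 16 lay above 0 (median 0.11), against 5 of 21 (median -0.08) in control. At an unadjusted p under 0.05 stood 2, or 9.52%, near the 10.8% of all genes. Replicate 4 at 1 day was the lowest library, and without it 11 of 21 lay above 0 (median 0.00). The purinergic receptors P2ry13 and P2ry12, by which microglia sense nucleotides, had log2 differences of 0.41 (SE 0.12) and 0.31 (SE 0.10). P2ry13 held 13.8, 12.6, 13.7 and 8.70 CPM at 1 day and 16.8, 17.0, 14.8 and 15.9 CPM at 5 days, without overlap. With replicate numbers as a block 6 microglial markers had an unadjusted p under 0.05, where 12.2% of all genes did. Summed microglial levels were 403.1 to 663.6 CPM and 491 to 684.1 CPM.

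Of 24 endothelial and mural markers 3 lay above 0 (median -0.21), and the control libraries had 1 of 24 above 0 (median -0.19). At an unadjusted p under 0.05 stood 1 higher and 3 lower, against 5.55% and 5.23% of all genes. With the replicate block 1 and 9 did, where 12.2% of all genes did. Rgs5, a marker of pericytes, held 62.1, 63.0, 61.1 and 55.5 CPM at 1 day and 53.5, 47.6, 44.7 and 42.0 CPM at 5 days (log2 -0.36, SE 0.11), and -0.23 (SE 0.11) in control. Choroid plexus markers had 21 of 22 above 0 (median 0.33), and 6 of 20 (median -0.29) once replicate 1 of both days was left out, so their direction followed those libraries. Of 6 measured blood cell markers 5 lay above 0 in Dnmt3a2 (median 0.47) and in control (median 0.59). Hbb-bs, a haemoglobin chain, held 66.1 to 89.1 CPM at 1 day and 98.4 to 169.6 CPM at 5 days (log2 0.64, SE 0.28), with 0.64 (SE 0.28) in control too. Markers of CA3 and CA2 neurons had 13 of 20 above 0 (median 0.13). Chgb, a granule protein of secretory vesicles, held 487.4, 500.2, 549.7 and 449.4 CPM at 1 day and 519.7, 602.2, 607.3 and 631.8 CPM at 5 days (log2 0.25, SE 0.06). Of 21 dentate granule markers 8 lay above 0 (median -0.04), against 18 of 21 (median 0.08) in control, and Prox1 had -0.17 (SE 0.08).

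Among synaptic genes, receptors lay mostly above 0, while postsynaptic scaffolds and kinases were evenly divided. All 25 genes of GABA receptors and the inhibitory synapse lay above 0 (median log2 0.09) and 0 were called. Of these 5 (20%) were higher at an unadjusted p under 0.05, against 5.55% of all genes. With other scaling factors all 25 stayed above 0, and with offsets for GC content and length 23 did. Gabra5, the receptor subunit of tonic inhibition in CA1, held 253.3, 270.5, 256 and 244.4 CPM at 1 day and 276.9, 286.2, 275.4 and 282.3 CPM at 5 days (log2 0.13, SE 0.04), and 0.06 (SE 0.04) in control. In control 21 of 25 lay above 0 (median 0.06).

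Of 31 monoamine and acetylcholine receptors 23 lay above 0 (median 0.15), and 20 in control (median 0.09). In Dnmt3a2 6 were higher and 0 lower at an unadjusted p under 0.05, against 5.55% and 5.23% of all genes. Chrnb2, the main beta subunit of brain nicotinic receptors, held 62.0, 64.7, 63.4 and 63.6 CPM at 1 day and 71.0, 81.2, 70.3 and 72.6 CPM at 5 days (log2 0.22, SE 0.05). The 1-day libraries were close together, and DESeq2 called Chrnb2 (adjusted p = 0.0125) where edgeR did not (adjusted p = 0.23). Chrna7, the alpha subunit of the homomeric nicotinic receptor, held 14.7, 15.2, 12.8 and 10.2 CPM and then 15.98, 20.2, 15.9 and 16.4 CPM (log2 0.37, SE 0.12). Chrm1, the chief muscarinic receptor of hippocampal neurons, held 370.3 to 395.5 CPM and then 402.4 to 430.3 CPM (log2 0.12, SE 0.04), and 0.09 (SE 0.04) in control, where the days did not overlap either. Without 1-day replicates 1 and 4, 26 of 31 lay above 0 (median 0.11).

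Of 37 glutamate receptors and their auxiliary subunits 28 lay above 0 (median 0.06), and 24 in control (median 0.06). In Dnmt3a2 7 were higher and 2 lower at an unadjusted p under 0.05, against 5.55% and 5.23% of all genes. Neto1, an auxiliary subunit of kainate and NMDA receptors, held 124.9 to 144.5 CPM at 1 day and 136.5 to 174.3 CPM at 5 days (log2 0.24, SE 0.08). Cnih2, which escorts AMPA receptors to the surface, lay lower, at 983.6 to 1134 CPM and then 851 to 1002 CPM (log2 -0.22, SE 0.07). Without 1-day replicates 1 and 4 the log2 difference was 0.15 (SE 0.09) for Neto1 and -0.13 (SE 0.08) for Cnih2. Potassium channels had 25 of 40 above 0 (median 0.06), and 28 of 40 in control (median 0.02). In Dnmt3a2 8 were higher and 4 lower at an unadjusted p under 0.05, against 5.55% and 5.23% of all genes. Kcnq5, a subunit of the M current, held 74.8, 78.5, 79.7 and 69.98 CPM and then 78.9, 99.5, 93.8 and 97.0 CPM. Its log2 difference was 0.29 (SE 0.08), 0.22 (SE 0.09) without 1-day replicates 1 and 4, and 0.01 (SE 0.08) in control. Of 34 postsynaptic scaffolds and kinases 17 lay above 0 (median 0.00), and 21 in control (median 0.01). In Dnmt3a2 3 were higher and 6 lower at an unadjusted p under 0.05, against 5.55% and 5.23% of all genes. Camk2a, the kinase central to synaptic potentiation, held 8471, 8070, 7653 and 8205 CPM at 1 day and 7629, 7455, 7143 and 7476 CPM at 5 days (log2 -0.13, SE 0.04), and 0.03 (SE 0.04) in control. Shank3, a scaffold of the postsynaptic density, held 472.1 to 550.8 CPM and then 445.2 to 467.6 CPM (log2 -0.18, SE 0.06), and -0.13 (SE 0.06) in control. Ppp1r9b (spinophilin), which places phosphatase in spines, held 1562 to 1834 CPM and then 1408 to 1545 CPM (log2 -0.21, SE 0.06). Its control value was -0.13 (SE 0.06). In Camk2a, Shank3 and Ppp1r9b each 5-day library lay below each 1-day library. Of the 34, 3 were lower and 1 higher without overlap, against 2.49% and 2.68% of all genes. Without 1-day replicates 1 and 4 the log2 differences of Camk2a, Shank3 and Ppp1r9b were -0.08 (SE 0.06), -0.13 (SE 0.07) and -0.14 (SE 0.07).

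The clustered protocadherins were gathered by symbol after the data had been seen, because Pcdhb2 and Pcdha11 were among the named genes. These cell surface proteins are chosen promoter by promoter in single neurons and give each an adhesive identity, and methylation of their promoters is known to take part in the choice. Of 56 measured entries 46 lay above 0 (median log2 0.21), with 13 higher and 0 lower at an unadjusted p under 0.05 (5.55% and 5.23% of all genes), 7 higher without overlap (2.68% of all) and 0 called. Pcdhb2 held 1.68, 2.26, 2.31 and 1.53 CPM at 1 day and 3.73, 4.25, 2.87 and 3.03 CPM at 5 days (log2 0.83, SE 0.19), and its control days did not overlap either (log2 0.39, SE 0.18). Pcdha11 (ENSMUSG00000007440) held 4.05, 2.40, 3.62 and 2.39 CPM and then 5.02, 7.47, 6.04 and 5.11 CPM (log2 0.92, SE 0.20), with 0.04 (SE 0.20) in control. A second entry under the same symbol had a log2 difference of -0.03. Pcdhga9 held 11.5, 10.97, 10.2 and 8.25 CPM and then 13.2, 16.03, 14.3 and 13.99 CPM (log2 0.49, SE 0.12), and 0.08 (SE 0.12) in control. Adjusted over the genes that edgeR tested, DESeq2 called these 3, which were singled out by their values on the same counts, so the calls are no separate support.

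Genes of the alpha and gamma clusters share their last exons, so the division of reads among them is uncertain. Replicate 4 was the lowest 1-day library of this list, and without it the median was 0.13 with 39 of 56 above 0. With offsets for GC content and length 44 of 56 lay above 0 (median 0.17). With replicate numbers as a block and replicate 1 of both Dnmt3a2 groups left out, a choice made after seeing the data, Pcdhgb4, Pcdhga9 and Pcdhga10 were among 33 called genes (edgeR adjusted p = 0.0304, 0.0457 and 0.0457). The control libraries had 43 of 56 above 0 (median 0.07) with 6 higher at an unadjusted p under 0.05. The interaction was called for none of them, and a difference between the virus groups was not shown.

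Ribosomal protein transcripts lay below 0 in both virus groups. Of 78 cytosolic ribosomal protein genes 76 lay below 0 (median -0.13) and 0 were called. At an unadjusted p under 0.05 stood 9, or 11.5%, near the 10.8% of all genes. In control 77 of 78 lay below 0 (median -0.10). With the replicate block 18 members had an unadjusted p under 0.05, where 12.2% of all genes did. Rpl14 held 133.1, 137.3, 141.2 and 159.4 CPM at 1 day and 130.7, 109.4, 120.3 and 125.7 CPM at 5 days (log2 -0.23, SE 0.09), without overlap. The list's size followed single libraries: the median was -0.07 without 1-day replicate 4 and -0.07 without 5-day replicate 2. Of 12 nuclear-retained long noncoding RNAs 3 lay above 0 (median -0.21, control -0.15), and Mirg, a host transcript of an imprinted microRNA cluster, had -0.50 (SE 0.16) in Dnmt3a2 and -0.51 (SE 0.16) in control. Mitochondrially encoded mRNAs had 1 of 13 above 0 (median -0.13), and 7 of 13 (median 0.01) in control. Immediate early genes, which neurons switch on within minutes of activity, had 9 of 30 above 0 (median -0.10), and 10 in control (median -0.07). Of the 30, 2 (6.67%) were lower at an unadjusted p under 0.05 in Dnmt3a2, near the 5.23% of all genes. Klf4 held 5.20 to 6.90 CPM at 1 day and 3.93 to 4.47 CPM at 5 days (log2 -0.47, SE 0.15). Without 1-day replicates 1 and 4 the early genes had 19 of 30 above 0 (median 0.03). Of 24 genes of the DNA methylation machinery 8 lay above 0 (median -0.09). Of these, 1 was higher and 1 lower at an unadjusted p under 0.05 (8.33% together), near the 10.8% of all genes.

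**Figure D4:**
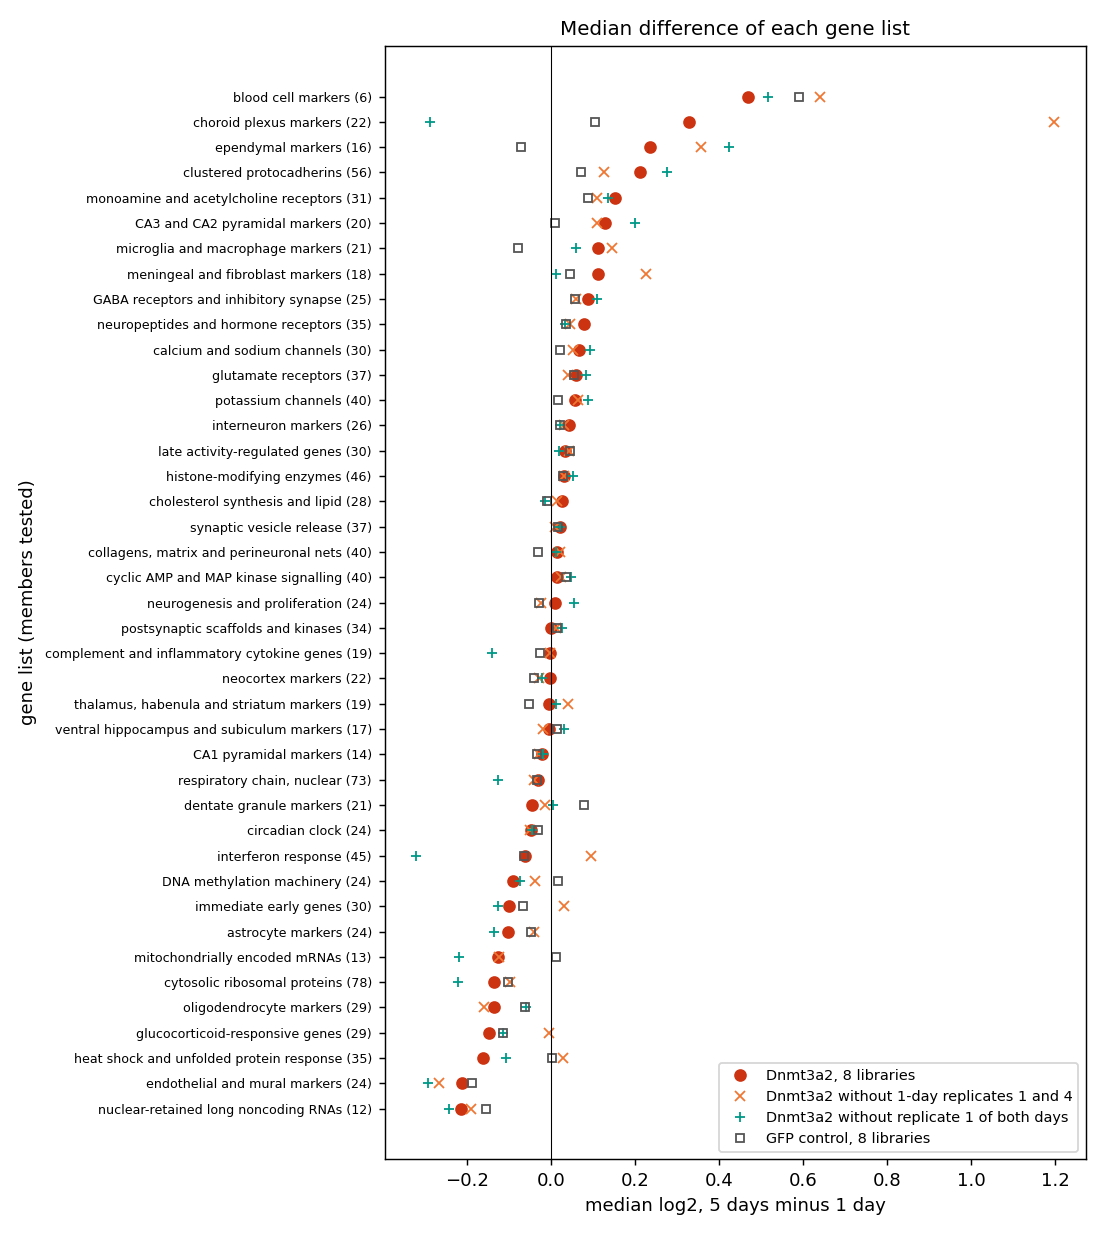
Median log2 difference, 5 days minus 1 day (x axis), of each of 41 gene lists (y axis, members tested in parentheses) in all Dnmt3a2 libraries, without 1-day replicates 1 and 4, without replicate 1 of both days, and in GFP control. The heat shock list lies at -0.16 with all libraries and 0.03 without the 1-day pair, and the choroid plexus list at 0.33 and, without replicate 1 of both days, -0.29.

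The 67 genes that DESeq2 called had log2 differences of 0.13 to 0.53 in size, and their adjusted p ran from 0.00245 to 0.049. All 67 had an unadjusted p under 0.05 in edgeR, and 59 did not overlap between days, against 5.17% of all genes. Both follow largely from the choice by low p on the same counts and are no separate support. Beside 15 of the named genes the 67 held Chrnb2, Gabra5 and Chgb, all higher at 5 days. Lingo1, a neuronal surface protein that restrains myelination, was among them at 410.1 to 439.6 CPM and then 479.5 to 511.4 CPM (log2 0.22, SE 0.06). Lamb1, a laminin of the basement membrane, held 21.04 to 24.1 CPM and then 25.4 to 28.7 CPM (log2 0.25, SE 0.06), with 0.18 (SE 0.06) in control. Lower were Vegfa, the vascular growth factor, at 28.8, 22.8, 27.1 and 37.1 CPM and then 19.4 to 23.4 CPM (log2 -0.45, SE 0.11), and Trp53inp2, an autophagy factor, at 207.1 to 260.5 CPM and then 161.8 to 209.5 CPM (log2 -0.35, SE 0.08). Frem3, an extracellular matrix protein, had no adjusted p under DESeq2's own filter and held 1.79, 1.15, 2.24 and 2.05 CPM at 1 day and 1.92, 4.97, 4.31 and 4.61 CPM at 5 days. Its 5-day replicate 1 lay among the 1-day libraries, and without it Frem3 was called (log2 1.36, edgeR adjusted p = 0.0287) where all 8 libraries gave 1.13 (SE 0.25, edgeR adjusted p = 0.187). These genes were singled out after their values had been seen.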

How the data were processed

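RNA of the dorsal hippocampus was sequenced on a BGISEQ-500 from 500 ng of total RNA per library, per the labels' protocols. Per the submitters' processing notes the tools were Trim Galore 0.6.4, kallisto 0.4.6 and edgeR 3.17, with build GRCm38.p6. Not given in the sources used here are the annotation release, the use of strand and how transcripts were summed to genes. The deposited expected counts, estimated by the authors for 55385 gene identifiers, are not normalised, and 26.2% of values were not whole. The authors' normalised values were not used here.

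In edgeR 4.0.16 (R 4.3.3) the rounded counts passed filterByExpr, which left 16899 genes, and were scaled by TMM. A robust quasi-likelihood model took in all 16 libraries, with a term for each group and no block, and p-values were adjusted by Benjamini-Hochberg over all genes tested. Genes were called at an adjusted p under 0.05. Totals of 28.6 to 30 M counts make 1 CPM worth 28.6 to 30 counts. No 2 libraries agreed within sampling noise (chi-square per gene at least 4.43 over 120 pairs). Names and positions are from GENCODE M21, and promoter windows from RefSeq on GRCm38.p6.

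The comparison, 40 of the 41 gene lists (1159 of 1200 symbols over the 41 lists were tested) and the naming rule were chosen with earlier results of these data known, and the protocadherin list and other list members named were chosen after these values were seen. The rule took called genes and, with fewer than 10 in a direction, the genes with the smallest p that averaged 1 CPM or more in the higher group, had an established symbol and did not overlap, plus Dnmt3a, the clock list and the member with the smallest p of each list. Replicate numbers pair the Dnmt3a2 libraries only in part. Over genes, deviations of equal numbers from the means of their days correlated at 0.461, 0.252, 0.127 and 0.115. Of 8 libraries 5 correlated best with their own number, while 1-day replicate 4 correlated at 0.303 with 5-day replicate 3. Alternatives were DESeq2 1.42.0 (size factors, Wald test), upper-quartile factors, limma-voom (limma 3.58.1), 1 surrogate variable (sva 3.50.0), other filters and thresholds, the replicate block and libraries left out.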

Additional observations from a re-analysis of the deposited data

Results flagged for a closer look

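Values were looked at again where, among the 4 libraries of a Dnmt3a2 group, the highest or lowest stood so far from the nearest other that the gap, over the whole range, passed Dixon's criterion. Of 236 such groups checked, 21 passed, and chance passes about 1 in 20 of independent groups. Many of the genes checked were chosen after their values were seen, and some belong to the lists checked. The 21 are therefore no measure of an excess over chance.

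Both Dnmt3a2 groups had 1 library rich in choroid plexus transcripts. Ttr was at 773.3 CPM in Dnmt3a2_1d replicate 1 (others 7.39 to 86.6 CPM) and at 1253 CPM in Dnmt3a2_5d replicate 1 (others 6.15 to 11.8 CPM). The summed choroid plexus markers were at 966.5 CPM (others 83.5 to 179.1 CPM) and 1519 CPM (others 81.0 to 97.5 CPM). In the same 1-day library the interferon response summed to 848.7 CPM, against 395 to 436.5 CPM. In the same 5-day library complement and inflammatory cytokine genes summed to 479.5 CPM, against 283.8 to 316.5 CPM, and meningeal and fibroblast markers to 259.8 CPM, against 118.8 to 139.7 CPM.

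In Dnmt3a2_5d replicate 3, blood cell markers summed to 495.2 CPM (others 312.4 to 322.1 CPM), with Hbb-bs at 169.6 CPM (others 98.4 to 108.2 CPM). That library was also low in Scd1, at 91.8 CPM (others 104.7 to 106.7 CPM), and in the postsynaptic scaffold and kinase list, at 26330 CPM (others 26780 to 26870 CPM). Dnmt3a2_5d replicate 2 stood apart for Chrna7 at 20.2 CPM (others 15.9 to 16.4 CPM), Pdgfra at 45.4 CPM (others 38.7 to 39.8 CPM), Prox1 at 153.9 CPM (others 136.3 to 138.4 CPM) and Hspa5 at 115.6 CPM (others 119.6 to 119.8 CPM).

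Among the 1-day libraries, replicate 4 was high in Hlf at 182.6 CPM (others 147.8 to 150.7 CPM) and in the synaptic vesicle release list at 19730 CPM (others 19140 to 19240 CPM). Replicate 2 was low in Oxsr1 at 32.0 CPM (others 35.4 to 35.9 CPM) and in Mirg at 5.52 CPM (others 7.18 to 7.49 CPM). It was high in the calcium and sodium channel list at 4649 CPM (others 4534 to 4538 CPM). Replicate 1 was low in Sstr3 at 25.9 CPM (others 30.3 to 31.0 CPM).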

How the results depend on the processing

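The count of genes called between 5 days and 1 day in Dnmt3a2 was 0 in edgeR's main model. It was 67 by DESeq2's Wald test (8021 genes adjusted), 42 with the same p-values adjusted over 16883 genes that edgeR tested, 6 without a low-count filter (Zcchc24, Slc19a3, B930095G15Rik and Gm12940 lower, Frem3 and Sstr3 higher) and 1 with 1 surrogate variable (Trp53inp2). Leaving out each Dnmt3a2 library gave 0 to 1, the 1 being Frem3 without Dnmt3a2_5d replicate 1. The replicate block over all libraries gave 0 (2068 genes at an unadjusted p under 0.05) and changed no call. Of the fits chosen after seeing the data, the replicate block in the Dnmt3a2 libraries alone gave 5, and leaving out pairs of equal number with the replicate block gave 33 for number 1, 0 for number 2, 1 for number 3 (B930095G15Rik) and 1 for number 4 (Gm9843). Leaving out the choroid-rich pair without a block gave 0 (2056 at an unadjusted p under 0.05), and leaving out 1-day replicates 1 and 4 gave 0 (731). Limma-voom, DESeq2's size factors, upper-quartile factors, a filter on mean CPM, estimation that was not robust, a fit to the groups compared, a threshold of 0.10 and GC and length offsets gave 0. The control count was 0 under each alternative run, and the interaction count 0 except for 1 by DESeq2's Wald test with each adjustment. Dnmt3a kept its sign, with a log2 difference of 0.11 to 0.37 as single libraries were left out and 0.05 without 1-day replicates 1 and 4, and was never called. None of the 20 named genes changed sign, but they were chosen with no overlap between the days. Leaving libraries out could therefore hardly reverse them. Which genes pass a threshold thus depends on the tool and filter, and the cause was not tested. With 4 libraries a group, the number of libraries limits the precision, and its part in the count was not tested.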
